A study of Mus musculus with 6 samples.

Results

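The genes described here are 39 interferon-stimulated antiviral genes, chosen by name from the known response to interferon, out of 24421 genes in the count table. They were measured by RNA-seq in liver endothelial cells (ECs) that had been sorted by FACS as CD31+CD45- cells, a gate that takes cells with an endothelial surface protein and leaves out cells with the leukocyte protein CD45. The young group was 3 samples from wild type C57BL/6J mice at 10 weeks of age. The aged group was 3 samples from wild type C57BL/6J mice at 127, 131 and 136 weeks of age, so each old age was represented by 1 sample, and weeks serve below as the names of the aged samples. No treatment or transgene was applied to either group, and the study's methods give all mice as female. Nothing in the labels says whether each sample was 1 mouse, so the spread between samples may be partly technical. All 39 genes were in the table and all 39 were among the 14612 genes that passed the filter on low counts (a CPM, the count scaled to a common library size, of at least 0.5 in at least 1 sample).

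Interferons are secreted proteins that cells release on sensing viral nucleic acid. Type I interferons bind the receptor Ifnar1-Ifnar2, and the kinases Jak1 and Tyk2 then activate transcription factors, with Stat2 and Irf9 among them. These bind a short promoter element, the interferon-stimulated response element, and switch on antiviral genes that sense foreign RNA, degrade it, block its translation or stop virus entry and release. Interferon-gamma acts through its own receptor and induces an overlapping set of genes, among them large GTPases of intracellular defence. The endothelium that lines the liver sinusoids is in direct contact with the blood and with resident macrophages, the Kupffer cells.

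The promoter stretches below are shown because they hold the kind of element through which these genes answer interferon, in genes that behaved differently in the samples. They are RefSeq sequences of mouse build GRCm38.p6, which differs from the build of the count table, and are written 5′ to 3′ on the strand of the gene, all before the annotated start. Capitals mark matches to the motif GAAA, any 2 bases, GAAA (on the other strand TTTC, any 2 bases, TTTC), and adjacent matches may overlap.
Isg15 (chr4:156200850-156200921, minus strand): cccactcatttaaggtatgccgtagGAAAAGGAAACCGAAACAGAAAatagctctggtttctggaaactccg
Ifit1 (chr19:34640760-34640838, plus strand): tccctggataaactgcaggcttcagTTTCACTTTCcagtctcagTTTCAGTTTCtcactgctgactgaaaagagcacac
Oas3 (chr5:120777700-120777759, minus strand): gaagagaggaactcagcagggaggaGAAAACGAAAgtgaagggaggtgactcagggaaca
Bst2 (chr8:71537562-71537627, minus strand): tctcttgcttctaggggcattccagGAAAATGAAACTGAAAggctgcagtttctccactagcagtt
Ifitm2 (chr7:140955973-140956032, minus strand): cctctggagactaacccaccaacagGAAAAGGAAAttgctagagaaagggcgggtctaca

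The matches of Isg15 lay 78 to 57 bases before the start and those of Ifit1 104 to 76 bases before it. In Oas3 the match lay 75 to 66 bases, in Bst2 130 to 115 bases and in Ifitm2 46 to 37 bases before the start. Windows from 250 bases before to 50 bases after the start were at hand for 29 of the 39 genes, and 13 of the 29 (44.8%) held the motif on either strand. Of all 27025 genes with a window, 1079 (3.99%) held it. The 13 genes were Isg15, Ifit1, Ifit3, Ifih1, Ddx58, Oas1a, Oas3, Rsad2, Bst2, Trim30a, Eif2ak2, Ifitm2 and Ifitm3. A match describes the letters of these windows and was not tested for binding. Genes that held the motif are found among those with a large log2 fold change towards aged ECs (Oas3, Ifit1 and Isg15) as well as among those with a lower aged than young mean (Ifitm2, Bst2 and Oas1a).

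Total counts ran from 23001556 to 31651817 per sample, at which 3 counts, the most that a count of 0 allows for, are 0.0946 to 0.135 CPM, a limit that covers counting error only. Of the counts, 0.960% to 5.53% fell on Lars2 and Rn45s, where reads of ribosomal RNA end up. Young replicate 3 (1.29%) and the 127-week sample (0.960%) stood apart from the other 4 samples (4.68% to 5.53%), so differences within each of these clusters of libraries are given beside the pooled ones. Within a group the closest pair of libraries, young replicates 1 and 2, still differed by 19.9 times the sampling noise (chi-square per degree of freedom), so no library was a duplicate of another. Summed over 7 pan-endothelial markers the samples had 9477 to 13961 CPM, against 106 to 395 CPM for 9 pan-leukocyte markers. The lowest endothelial and the highest leukocyte sum were both those of the 136-week sample. Of the 7 endothelial markers, 3 were lower in every aged than in every young sample, where 8.33% of all genes were.

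In young liver ECs these genes were expressed over a wide range, in mice whose infection status is not given. Compared per transcript length (FPKM), the highest were the membrane proteins Ifitm2 with 4179 ± 887 FPKM, Ifitm3 with 2568 ± 165.5 FPKM and Bst2 with 580.2 ± 50.2 FPKM (SD, n = 3 each). They were followed by Lgals3bp (350.0 ± 23.1 FPKM), Ifi27 (189.5 ± 7.67 FPKM) and Sp100 (156 ± 18.0 FPKM). Ifitm2 and Ifitm3 did not overlap in their young values, nor did Ifitm3 and Bst2. The lowest were Oas3, Mx1 and Oas2, with young means of 0.0976, 0.175 and 0.526 FPKM. C57BL/6 mice carry a defective Mx1 allele, a known feature of many laboratory strains.

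The comparison of aged with young ECs asks whether the antiviral genes differ between the ages. None of the 39 genes reached both an adjusted p under 0.05 and a log2 change of more than 1 (edgeR quasi-likelihood test, Benjamini-Hochberg adjustment over all 14612 genes), where 0% of all genes were called. At an unadjusted p below 0.05, 4 genes were higher in aged ECs (Isg15, Ifit1, Oas3 and Zbp1), 10.3% of the 39 against 8.32% of all genes. Lgals3bp alone was lower at that level, 2.56% of the 39 against 4.32% of all genes. The smallest adjusted p among the 39 genes was 0.310 (Oas3). The median log2 fold change of the 39 genes was 0.22, with a range from -0.65 to 3.24, and that of all genes tested was 0.0098. By sign alone 28 of the 39 (71.8%) were higher in aged ECs, against 51.1% of all genes. Aged and young CPM values did not overlap for 1 gene that was higher in aged ECs (Oas3, 2.56% of the 39 against 9.62% of all genes) and for 2 that were lower (Ifi27 and Lgals3bp, 5.13% against 8.33%). The shares past the unadjusted threshold of edgeR and those that did not overlap were thus near or below those of all genes. In bulk samples of sorted cells, a different number of cells of a type and a different amount of RNA per cell cannot be told apart. DESeq2, run as another test, called 2 of the 39 higher (Oas3 and Zbp1, 5.13% against 2.7% of all genes) and 0 lower (0.541% of all genes).

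**Figure D1:**
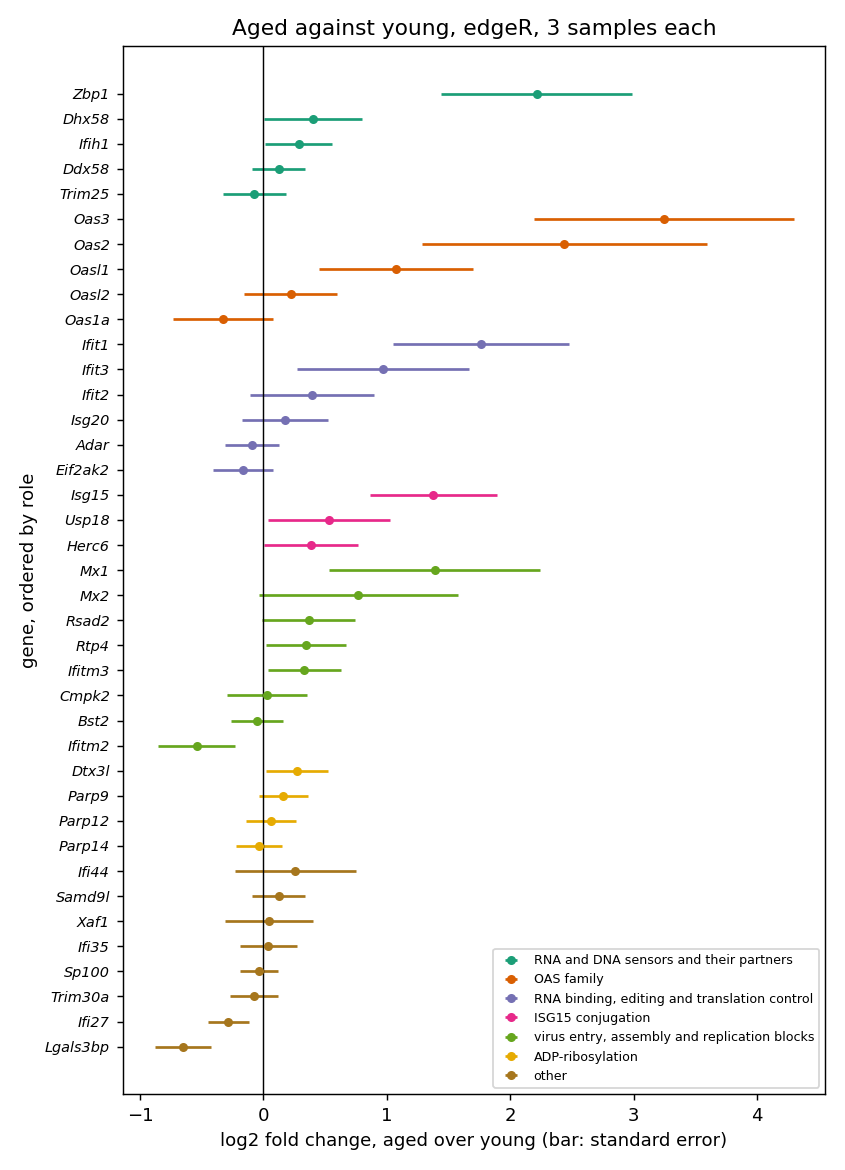
Log2 fold change of each of the 39 genes, aged over young (x axis), with the standard error as a bar, from edgeR on 3 samples per group, with genes on the y axis ordered and coloured by role. Most points lie between -0.65 and 1, and the genes far to the right (Oas3, Oas2, Zbp1 and Ifit1) have the long bars of genes that vary among the aged samples.

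The larger differences lay among the aged samples. The 136-week sample held the highest CPM of all 6 samples for 32 of the 39 genes (82.1%), where 25.7% of all genes were highest in it. The 131-week sample held the lowest for 27 genes (69.2%, against 12.7% of all genes), and both were true of 25 genes (64.1%, against 3.79%). None of the 39 was highest in the 131-week sample, against 12.7% of all genes. The 7 genes that were not highest in the 136-week sample were Ifi27, Mx2, Trim25, Sp100, Eif2ak2, Ifitm2 and Lgals3bp. These are descriptions of single samples, because no old age had a replicate.

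As the median over the 39 genes of the difference from the young mean on the log2(CPM + 1) scale, the young samples lay at -0.068, -0.14 and 0.22. On the same scale the 127-week sample lay at 0.12, the 131-week sample at -0.39 and the 136-week sample at 0.74. The same median over all genes tested stayed between -0.0063 and 0.016 in every sample. Counted by gene, 35 of the 39 stood above their young mean in the 136-week sample, 26 in the 127-week sample and 5 in the 131-week sample. Among the young samples, 29 of the 39 (74.4%) were highest in replicate 3, against 41.1% of all genes. The spread in log2 units was larger among the aged than among the young samples for 36 of the 39 (92.3%), Mx2, Sp100 and Eif2ak2 being the exceptions, against 60.7% of all genes. The median SD over the 39 genes was 0.22 in young and 0.64 in aged samples, and over all genes 0.22 and 0.27.

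**Figure D2:**
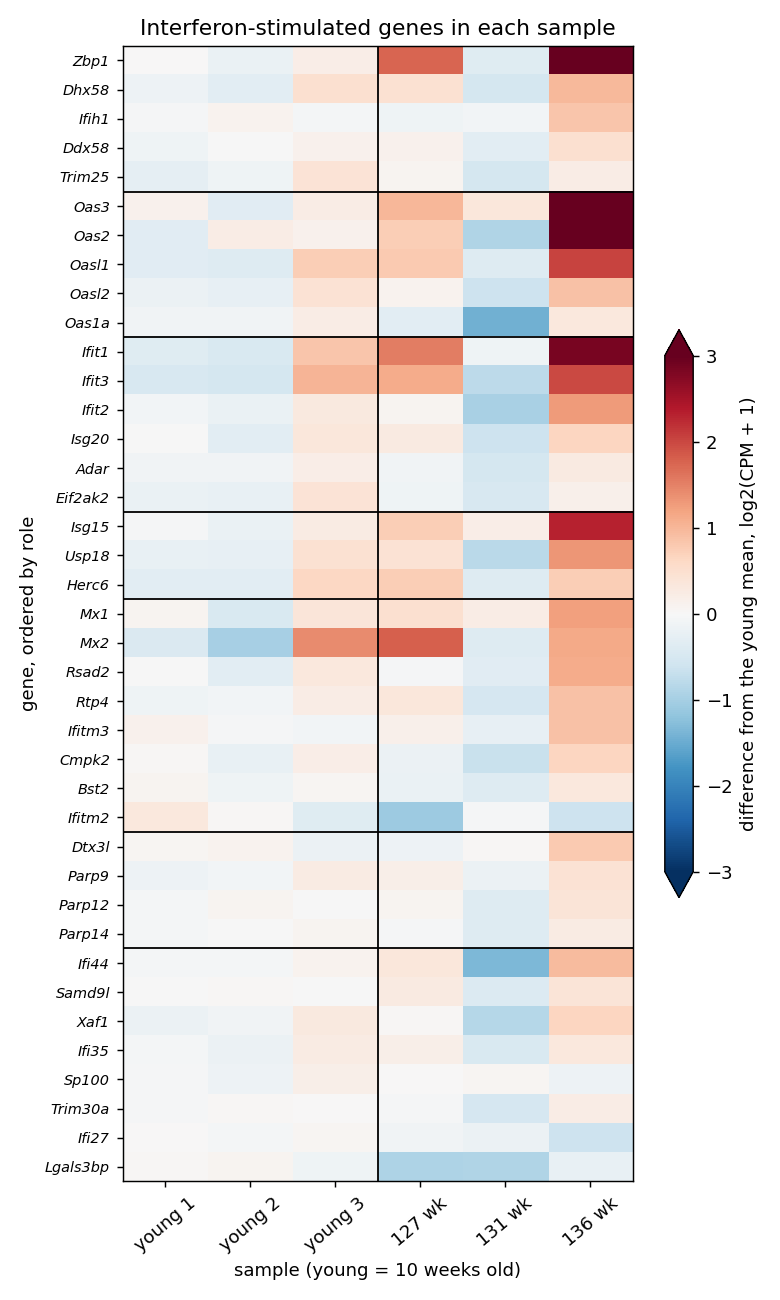
Each row is a gene, grouped by role, and each column a sample, with colour for the difference from the gene's young mean on the log2(CPM + 1) scale (red higher, blue lower, with the largest differences in the end colours). The 136-week column is red for most genes and the 131-week column is blue for most, with the 127-week column and young replicate 3 between them.

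Leaving out samples showed how far the comparison rested on them. Without the 136-week sample the median log2 fold change was -0.11, 13 of the 39 genes were higher in aged ECs (50.8% of all genes were) and 17 had changed sign. In that fit 1 gene had non-overlapping higher and 6 had non-overlapping lower aged values, where 12.6% and 11.1% of all genes did, and 1 gene (Lgals3bp) had an unadjusted p below 0.05, against 7.78% of all genes. Without the 131-week sample the median was 0.44 and 34 of the 39 were higher (51.3% of all genes). There 14 had non-overlapping higher and 3 had non-overlapping lower aged values, against 18.5% and 16% of all genes, and 12 had an unadjusted p below 0.05, against 16.7% of all genes. Within the 4 libraries with many Lars2 and Rn45s counts, the median difference of the 39 genes was 0.25 on the log2 scale, and between the other 2 libraries, 1 of each age, it was -0.057. In the former 4 libraries 5 genes had non-overlapping higher and 3 had non-overlapping lower aged values, where 23.1% and 22.4% of all genes did.

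**Figure D3:**
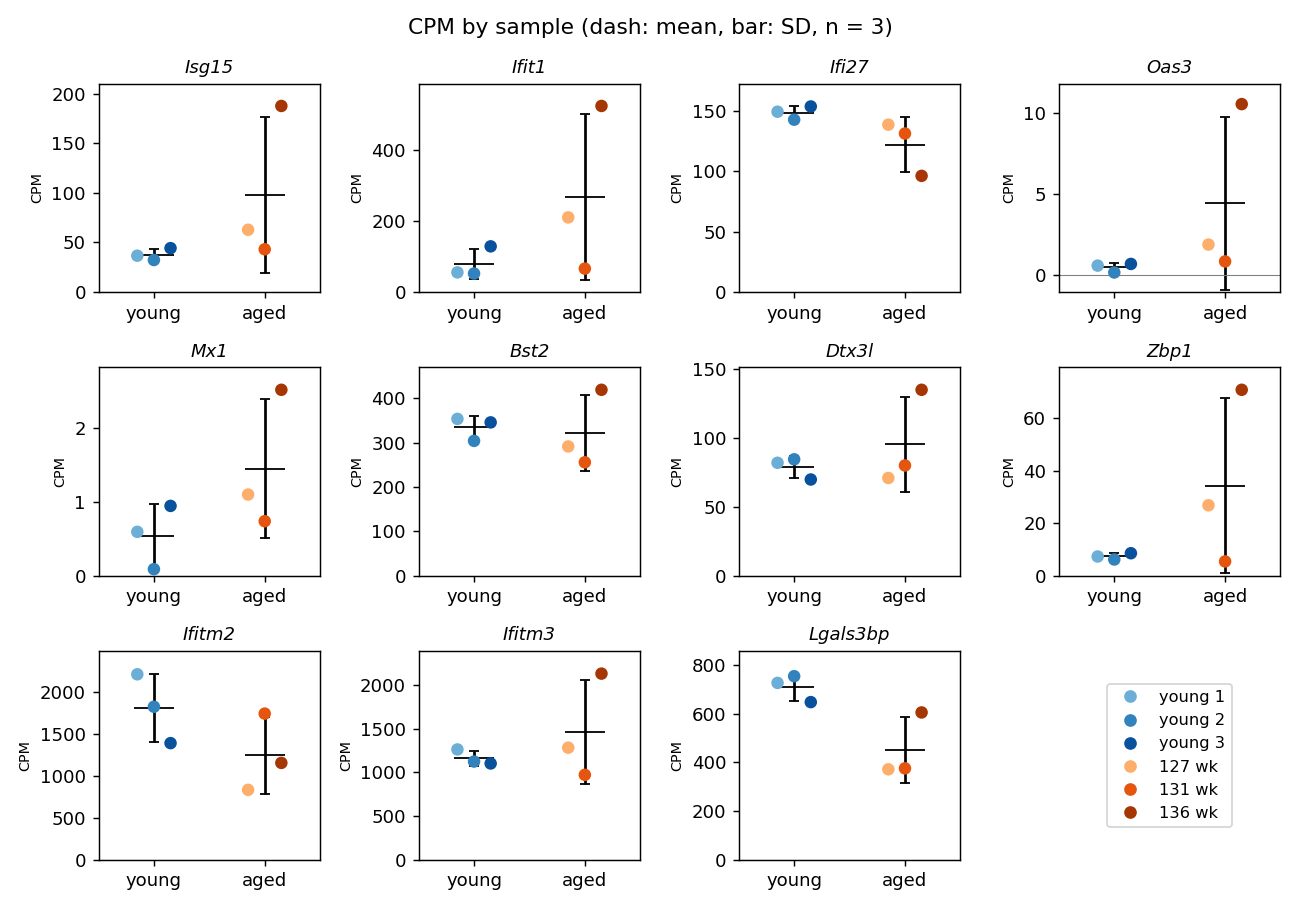
CPM (y axis, from 0 except for Oas3, whose SD bar reaches below 0) of the 11 genes given in every sample, with a point per sample, a dash for the mean and a bar for the SD of 3 samples. For Isg15, Ifit1, Oas3, Zbp1 and Mx1 the 136-week point lies above the other 5, while Lgals3bp and Ifi27 are the genes whose aged points all lie below the young ones.

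The sensors of foreign nucleic acid were Ddx58 (RIG-I), Ifih1 (MDA5), Dhx58 (LGP2, which modulates both), Trim25, a ubiquitin ligase that acts with RIG-I, and Zbp1, which binds left-handed nucleic acid and can start cell death. Zbp1 (chr2:173032113-173044424, mm9) stood at 7.37, 6.23 and 8.61 CPM in young replicates 1, 2 and 3. It stood at 26.9 CPM in the 127-week, 5.49 in the 131-week and 70.9 in the 136-week sample. The 127- and 136-week samples were thus above every young sample and the 131-week sample below them all. The group means were 7.40 ± 1.19 CPM in young and 34.4 ± 33.4 CPM in aged ECs (SD, n = 3 each), with a log2 fold change of 2.21 (standard error 0.77, edgeR adjusted p = 0.332). DESeq2 gave it an adjusted p of 0.0325, and over all alternatives its adjusted p ran from 0.0325 to 1. Without the 136-week sample the log2 fold change was 1.13. Its log2 difference was 1.47 within the libraries with many Lars2 and Rn45s counts and 1.54 between the other pair. The other 4 sensors were less spread, with aged to young log2 fold changes that did not pass the unadjusted threshold. Ifih1 was level in 5 samples (52.9 to 61.9 CPM) and stood at 104 CPM in the 136-week sample. Ddx58, Dhx58 and Trim25 were lowest in the 131-week sample.

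The oligoadenylate synthetases make a second messenger that activates the nuclease RNase L, which cuts viral and cellular RNA, and Oasl1 and Oasl2 are related proteins. Oas3 (chr5:121203107-121227670) was barely expressed in young ECs, with 0.558, 0.135 and 0.663 CPM, from 15, 3 and 21 counts. In the aged samples it stood at 1.86 CPM (54 counts) at 127 weeks, 0.817 CPM (21 counts) at 131 weeks and 10.5 CPM (259 counts) at 136 weeks. All aged values were above all young values, but the closest pair, young replicate 3 and the 131-week sample, rested on equal counts of 21. The group means were 0.452 ± 0.279 CPM in young and 4.40 ± 5.33 CPM in aged ECs (SD, n = 3 each), with a log2 fold change of 3.24 (standard error 1.05, edgeR adjusted p = 0.310). DESeq2 gave an adjusted p of 0.0227, and the adjusted p ran from 0.0227 to 1 over the alternatives that kept the gene. Without the 136-week sample the log2 fold change was 1.54. Oas2, its neighbour, had 0.583 CPM (15 counts) at 131 weeks and 28.3 CPM (698 counts) at 136 weeks. This ratio of 48.6 was the largest among the 39 genes and rests on few counts at 131 weeks. In young ECs Oas2 had 1.34 to 2.48 CPM, from 36 to 71 counts. Oas1a was likewise lowest at 131 and highest at 136 weeks but over a narrower range, with 42.0 to 53.4 CPM in young ECs and 36.6, 16.2 and 57.1 CPM in the 127-, 131- and 136-week samples. Its counts are uncertain, because 41.7% of the 75-base stretches of its exons also occur in other genes, chiefly Oas1g.

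Of the genes that bind, edit or cut RNA or hold back translation, Ifit1, Ifit2 and Ifit3 bind viral RNA and each other, Isg20 is an exonuclease, Adar edits double-stranded RNA and Eif2ak2 (PKR) is a kinase that stops translation. Ifit1 (chr19:34715361-34724499) had 55.3, 52.0 and 129 CPM in the young samples. It had 210.1, 65.9 and 524 CPM in the 127-, 131- and 136-week samples. The 131-week sample thus fell among the young ones, and young replicate 3 was above it. The means were 78.6 ± 43.3 CPM in young and 267 ± 234 CPM in aged ECs (SD, n = 3 each), with a log2 fold change of 1.76 (standard error 0.71, edgeR adjusted p = 0.376). It was 0.81 without the 136-week sample and 2.22 without the 131-week sample. Ifit3 and Ifit2, which lie beside Ifit1, had 136-week to 131-week ratios of 6.90 and 4.79, although 41.1% of the 75-base stretches of Ifit3 occur in another gene as well. Adar and Eif2ak2 moved little, with 87.5 to 152 CPM and 30.1 to 56.7 CPM over the 6 samples.

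Isg15 is a ubiquitin-like protein that is joined to other proteins, Herc6 is the main ligase for it in the mouse and Usp18 removes it and restrains the interferon receptor. Isg15 (chr4:155573533-155574927) had 36.6, 32.3 and 44.3 CPM in the young samples. In the 127-, 131- and 136-week samples it had 62.8, 43.1 and 188 CPM. The 131-week value lay just under that of young replicate 3, and the other aged values above all young ones. The means were 37.7 ± 6.07 CPM in young and 97.9 ± 78.5 CPM in aged ECs (SD, n = 3 each), with a log2 fold change of 1.37 (standard error 0.51, edgeR adjusted p = 0.354). It was 0.49 without the 136-week sample. The log2 difference was 1.37 within the libraries with many Lars2 and Rn45s counts and 0.50 between the other pair. Usp18 and Herc6 overlapped between the ages, with 33.3 to 151 CPM and 29.6 to 65.5 CPM over the 6 samples.

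A group of 8 genes acts on virus entry, assembly, release or replication. Ifitm2 and Ifitm3 sit in membranes and block virus fusion, Bst2 (tetherin) holds budding virus at the cell surface, Rsad2 (viperin) makes a chain-terminating nucleotide and Cmpk2 lies beside it in the genome, Mx1 and Mx2 are dynamin-like GTPases, and Rtp4 is a membrane-linked zinc finger protein. Ifitm3 (chr7:148195485-148196669) had 1263, 1125 and 1102 CPM in the young samples and 1283, 972 and 2132 CPM in the 127-, 131- and 136-week samples. Its neighbour Ifitm2 (chr7:148140736-148141882) had its highest value in a young sample, with 2211, 1824 and 1390 CPM in the young and 833, 1742 and 1154 CPM in the aged samples. Both overlapped between the ages. The log2 fold changes were 0.33 for Ifitm3 (standard error 0.29, edgeR adjusted p = 0.713) and -0.54 for Ifitm2 (standard error 0.31, edgeR adjusted p = 0.533). Ifitm2 was lower in aged ECs in every alternative fit run, whereas Ifitm3 was level (-0.043) without the 136-week sample. Bst2 (chr8:74058163-74061336) had 354, 304 and 346 CPM in the young samples and 292, 256 and 419 CPM in the aged ones, in order of age. The highest and lowest values were both those of aged samples, and the log2 fold change was -0.054 (standard error 0.21, edgeR adjusted p = 0.951). Mx1 (chr16:97668642-97684514) stood at 0.596, 0.0903 and 0.947 CPM in the young and 1.10, 0.739 and 2.52 CPM in the aged samples, from 2 to 62 counts. These low values overlapped between the ages, with a log2 fold change of 1.39 (standard error 0.86, edgeR adjusted p = 0.565) that was 0.74 without the 136-week sample and 2.05 without young replicate 3. Mx2 was an exception to the pattern of single samples: its highest CPM were 25.3 at 127 weeks and 19.3 in young replicate 3, the pair of libraries with few Lars2 and Rn45s counts, against 2.84 to 15.8 CPM in the other 4.

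The ADP-ribosylation genes Parp9, Parp12 and Parp14 and Dtx3l, the ubiquitin ligase that pairs with Parp9, were among the steadiest. Dtx3l (chr16:35926597-35939237) had 82.1, 84.7 and 70.0 CPM in the young samples and 71.1, 80.2 and 135 CPM in the 127-, 131- and 136-week samples. It thus stood apart in the 136-week sample only, with a log2 fold change of 0.27 (standard error 0.25, edgeR adjusted p = 0.722). Dtx3l and Parp9 are transcribed away from each other and share 458 exonic bases on opposite strands at their 5′ ends, so their reads cannot be fully separated where counting ignored the strand. Parp9, Parp12 and Parp14 were all highest in the 136-week sample, at 117 to 182 CPM.

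The remaining 8 genes have other or less settled roles, and 2 of them held the only values that were lower in every aged than in every young sample. Lgals3bp (chr11:118254065-118263406) encodes a secreted glycoprotein that binds galectins. It had 726, 754 and 647 CPM in the young samples and 371, 375 and 605 CPM in the 127-, 131- and 136-week samples. The means were 709 ± 55.3 CPM in young and 450.5 ± 134 CPM in aged ECs (SD, n = 3 each), with a log2 fold change of -0.65 (standard error 0.23, edgeR adjusted p = 0.332). The log2 difference was -0.63 where Lars2 and Rn45s counts were many and -0.80 where they were few. Ifi27, which encodes a small hydrophobic protein, had 149, 143 and 154 CPM in the young and 139, 131 and 96.2 CPM in the aged samples. Its log2 fold change was -0.28 (standard error 0.17, edgeR adjusted p = 0.549), and it was lowest in the 136-week sample, opposite to most of the 39 genes. Of the others, Ifi44 and Xaf1 followed the common pattern, Ifi44 with 36.1 CPM at 131 and 182 CPM at 136 weeks and Xaf1 with 38.6 and 112 CPM. Sp100, a nuclear body protein, did not, with 322 to 405 CPM over all 6 samples.

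By role, the median log2 fold change was 1.08 for the 5 genes of the OAS family, 0.53 for the 3 of ISG15 conjugation and 0.34 for the 8 of virus entry, assembly and replication. It was 0.29 for the 5 sensors, 0.28 for the 6 of RNA binding and translation, 0.11 for the 4 of ADP-ribosylation and 0.0035 for the remaining 8. In the genome 17 of the 38 genes with a position lay in 7 runs with gaps of at most 200 kb: Ifit1 with Ifit2 and Ifit3, Oas1a with Oas2 and Oas3, Oasl1 with Oasl2, Mx1 with Mx2, Ifitm2 with Ifitm3, Rsad2 with Cmpk2, and Parp9 with Parp14 and Dtx3l. Ifitm2 and Ifitm3 had opposite signs with all 6 samples, although neither passed the test.

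Of the 10 interferon genes examined, 9 had at most 5 counts in any sample and fell below the filter. Among these 9 only Ifnb1 had any counts, 5 in the 136-week sample. Ifng, which encodes interferon-gamma, had 0 counts in the 3 young samples and the 131-week sample, 6 counts (0.206 CPM) at 127 weeks and 16 counts (0.650 CPM) at 136 weeks. The 2 samples with Ifng counts are the 2 aged samples in which Isg15, Zbp1 and Ifit1 stood above every young sample. Among the T and NK cell markers, Nkg7 was also above every young sample in these 2, with 71 and 258 counts. So were Cd3d, Cd3e, Cd3g, Cd2, Lck and Cd8a. Cd4 and Klrb1c were not at 127 weeks, with 3 and 6 counts there against 8 each in young replicate 2. A link between the few Ifng counts and the other genes was not tested.

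Of 20 receptors and signal transducers, 10 were higher in aged ECs by sign, where 51.1% of all genes were. At an unadjusted p below 0.05, 2 were higher and 1 lower, where 8.32% and 4.32% of all genes were. The median log2 fold change was 0.0016. Stat2 and Irf9 had log2 fold changes of 0.046 and -0.035 (edgeR adjusted p = 0.980 and 0.976). Irf7, a factor that amplifies the type I response and is itself induced by it, had 88.6, 84.5 and 155 CPM in the young and 152, 55.8 and 612 CPM in the aged samples, again lowest at 131 and highest at 136 weeks. Its log2 fold change was 1.32 (standard error 0.77, edgeR adjusted p = 0.543). Irf1, a factor induced by interferon-gamma and by inflammatory signals, differed from these in that all aged samples (1882, 1446 and 2934 CPM) were above all young ones (599, 629 and 1006 CPM). Its log2 fold change was 1.49 (standard error 0.33, edgeR adjusted p = 0.232). Socs3, an inhibitor of Jak kinases, was also above every young sample in every aged one, with a log2 fold change of 1.02 (standard error 0.29, edgeR adjusted p = 0.256). Jak1 was below every young sample, with a log2 fold change of -0.61 (standard error 0.23, edgeR adjusted p = 0.350). In all, 2 of the 20 were higher and 1 lower without overlap, where 9.62% and 8.33% of all genes were.

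Of 11 tested genes of nucleic acid sensing upstream of interferon, 9 were higher by sign (51.1% of all genes) and 4 at an unadjusted p below 0.05 (8.32% of all genes), with a median log2 fold change of 0.37. Mb21d1, which encodes the DNA sensor cGAS, was the 1 gene of these 11 whose ages did not overlap, where 9.62% of all genes were higher without overlap. Its log2 fold change was 1.32 (standard error 0.37, edgeR adjusted p = 0.256). Of 17 tested GTPases induced mainly by interferon-gamma, 16 were higher by sign (51.1% of all genes) and 3 at an unadjusted p below 0.05 (8.32% of all genes). Their median log2 fold change was 0.78. Of the 17, 2 (Irgm1 and Ifi47) were higher without overlap between the ages, where 9.62% of all genes were. Their log2 fold changes were 1.09 and 1.03 (standard error 0.31 each, edgeR adjusted p = 0.256 and 0.288). Tgtp1 overlapped, with a log2 fold change of 2.14 (standard error 0.58, edgeR adjusted p = 0.256). By median the GTPases lay highest in the 127-week sample (0.95 above the young mean on the log2(CPM + 1) scale), not in the 136-week sample (0.83), and lay at -0.40 in the 131-week sample. Of 38 other interferon-induced genes, 24 were higher by sign (51.1% of all genes), with a median of 0.23. At an unadjusted p below 0.05, 2 were higher and 1 lower (8.32% and 4.32% of all genes). Without overlap, 3 were higher and 1 lower, where 9.62% and 8.33% of all genes were. Slfn8, Cxcl10 and Ifi204 had the smallest unadjusted p, with log2 fold changes of 1.78, 1.65 and -0.59 (standard error 0.42, 0.56 and 0.24). Their edgeR adjusted p were 0.235, 0.326 and 0.373. Of these 38, 24 were highest in the 136-week sample (25.7% of all genes) and 18 lowest in the 131-week sample (12.7% of all genes).

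Leukocyte and myeloid markers were highest in the 136-week sample in sum, as most of the 39 genes were, and hepatocyte markers were lowest there. Summed over 9 of 10 pan-leukocyte markers in the table, the young samples had 106 to 110.2 CPM, and the 127-, 131- and 136-week samples 128, 106 and 395 CPM. All 9 were highest in the 136-week sample. Lcp1 alone made up 79.3, 86.9 and 81.0 CPM of the young sums and 59.6, 83.7 and 156 CPM of the aged ones. At 127 weeks Lcp1 was thus below every young sample, whereas each of the other markers was above every young sample. Ptprc, which encodes CD45, had 1.17 to 1.70 CPM in the young samples and 7.56, 1.28 and 25.6 CPM in the aged ones by age. The sum of 11 of 12 Kupffer and myeloid markers was 48.5 to 94.6 CPM in the young samples and 203, 33.1 and 500.4 CPM in the aged ones, the same order as the 39 genes, and 7 of the 11 were below every young sample at 131 weeks. The sum of 9 of 10 T and NK cell markers was at most 9.87 CPM in young and 20.6, 9.80 and 41.0 CPM in aged samples. Lck alone made up 8.90 CPM in young replicate 3 and 13.5, 8.79 and 13.1 CPM in the aged samples. The T cell gene Cd3d had 0 counts in young replicates 2 and 3 and in the 131-week sample. The sum of 4 B cell markers was 0.946 to 1.23 CPM in the young and 1.51, 0.739 and 8.49 CPM in the aged samples. Plasmacytoid dendritic cells are the main producers of type I interferon, and their 8 markers summed to 232 to 303 CPM, of which Tcf4, a gene of many cell types, made up 229.5 to 298 CPM. Of the other 7, Siglech stayed at or below 0.528 CPM, with 0 counts in young replicate 2, and the highest value of any was 8.26 CPM (Klk1 in young replicate 1). The sum of 7 stellate and mural markers was 373, 319.6 and 123 CPM in young replicates 1, 2 and 3. It was 448, 217 and 675 CPM in the aged samples by age, the aged order of the 39 genes but lowest in young replicate 3. Reln alone made up 351, 109 and 495 CPM of those aged sums. Pdgfrb, Des, Rgs5 and Acta2 were lower at 127 than at 131 weeks, whereas Lrat and Dcn were higher.

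When the edgeR fit also held a term for the mean log2 level of pan-leukocyte markers, an addition made after the data were seen, the median log2 fold change of the 39 genes was -0.32 and 7 of the 39 were higher by sign, against 49.4% of all genes. In that fit 8 genes were lower at an unadjusted p below 0.05 (Xaf1, Lgals3bp, Cmpk2, Ifit2, Adar, Ifi44, Oas1a and Bst2), where 2.11% of all genes were. Oas3, Zbp1, Ifit1 and Isg15 then had log2 fold changes of 0.86, 0.14, 0.084 and 0.17. With 6 samples the pan-leukocyte term cannot be told apart from other traits of the 136-week sample, in which all 9 markers were highest. The part of leukocyte RNA in the values of the 39 genes was thus not tested. The 7 markers of liver sinusoidal endothelium were lower in aged ECs in sum. They had 14946 to 16612 CPM in young and 5920, 10140 and 5702 CPM in aged samples. By that sum the 131-week sample, lowest in the 39 genes, was the aged sample nearest to the young ones. Of the 7 markers, 6 were lower in every aged sample without overlap, where 8.33% of all genes were. Lyve1 differed, with 391, 537 and 670 CPM in young and 660, 223 and 1506 CPM in aged samples by age. The sum of 8 hepatocyte markers was 143, 101 and 159 CPM in the young and 85.4, 76.1 and 65.2 CPM in the aged samples. Among the 8, 4 were lower in every aged sample without overlap, against 8.33% of all genes.

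**Figure D4:**
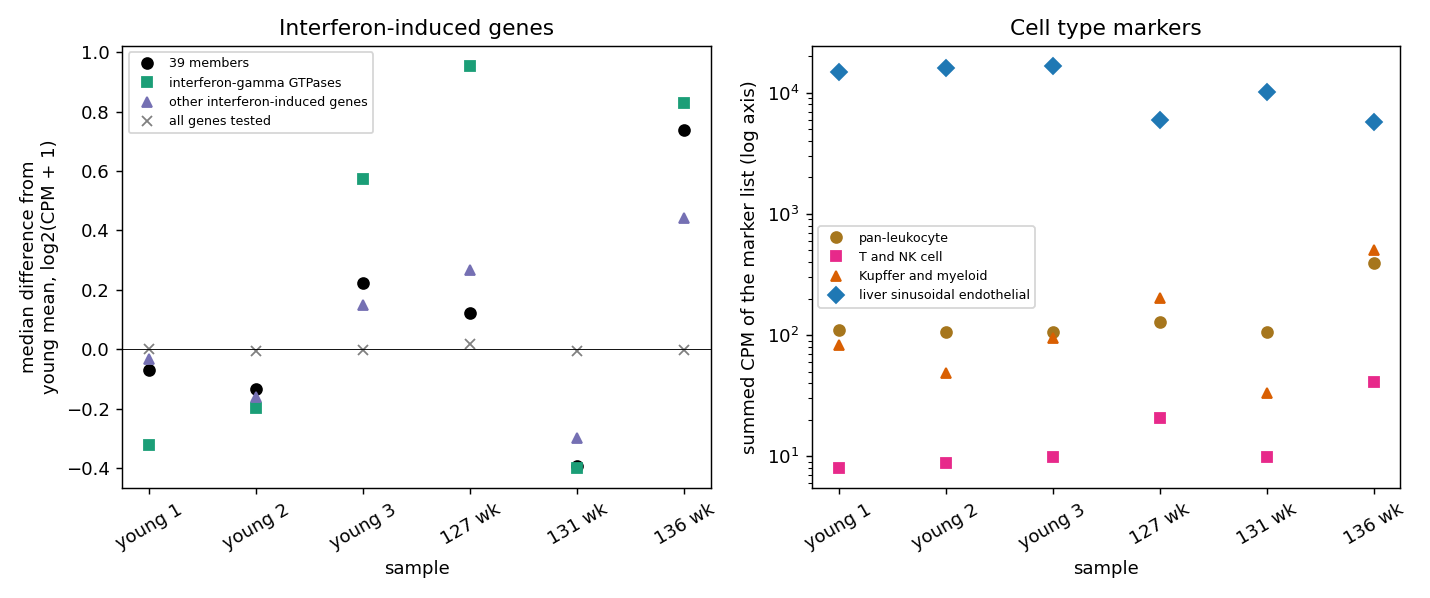
The left panel gives the median difference from the young mean (y axis, log2(CPM + 1)) for the 39 genes, the interferon-gamma GTPases, other interferon-induced genes and all genes tested in each sample (x axis), and the right panel the summed CPM of marker lists on a log axis. The 39 genes lie at -0.39 in the 131-week and 0.74 in the 136-week sample, and the Kupffer and myeloid sum at 33.1 and 500.4 CPM in the same samples.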

How the data were processed

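Single-end reads from sorted liver ECs were mapped by the authors to mm9 with TopHat2 2.1.0 after base calling with CASAVA 1.8.2, per the labels. The deposited counts are whole numbers per gene symbol, without normalization, and the program, annotation and strand setting of the counting are not given in the sources used here. The deposited FPKM values came from Cuffnorm 2.2.1 and were used for levels between genes and as an alternative. The 39 genes and the other gene and marker lists were chosen with earlier results of these data known. No list set a term or filter of the main fit. Pan-leukocyte markers set a term in an alternative fit, as did Lars2 and Rn45s for the library cluster.

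Genes with at least 0.5 CPM in 1 sample were normalized by TMM (factors 0.963 to 1.11) and tested with edgeR 4.0.16 (R 4.3.3), Benjamini-Hochberg adjusted over 14612 genes. Printed CPM are TMM-normalized. Standard errors are the log2 fold change over the square root of F. DESeq2 1.42.0 and limma 3.58.1 served as alternatives. With 3 samples against 3, an exact permutation test of 1 value cannot go below 0.1. Values in every sample are given for genes whose ages did not overlap, the 3 genes with the highest young FPKM and the gene with the largest change in each role. Other genes are given by range, or were named after their values were seen. Positions are GENCODE (mm9), and promoter sequences RefSeq (GRCm38.p6). One gene of the signal transducer list was counted with its list and is not reported here on its own.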

Additional observations from a re-analysis of the deposited data

How the results depend on the processing

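In every one of the 17 alternatives that tested the gene, 9 of the 39 had the sign given above (Isg15, Ifit1, Ifi27, Oas3, Mx1, Mx2, Zbp1, Ifitm2 and Lgals3bp), and the stricter filter tested 37, without Oas3 and Mx1. The number of all genes called was 0 with edgeR, 474 with DESeq2, 15 with limma-voom, 4 with no filter, 2 with log2(FPKM + 0.1), 2 with a term for the library cluster, 16 with the pan-leukocyte term, and 0 to 1 when 1 sample was left out. Of the 39 genes, 2 were called by DESeq2 and 0 in each fit that left out 1 sample. Their median log2 fold change was -0.32 with the pan-leukocyte term and -0.11 (without the 136-week sample) to 0.44 (without the 131-week sample) when 1 sample was left out. The count of genes whose ages did not overlap was 3, against 8 in the 4 samples with many Lars2 and Rn45s counts (23.1% of all genes higher and 22.4% lower) and 3 to 17 when 1 sample was left out, 17 without the 131-week sample (18.5% and 16% of all genes). The pan-leukocyte term turned the log2 fold change of Dtx3l to -0.10, Ifitm3 to -0.23, Stat2 to -0.36 and Irf7 to -0.80, and the 4 samples turned Bst2 to 0.034 and Irf9 to 0.040. Leaving out 1 sample moved Bst2 from -0.29 to 0.088, Dtx3l from -0.059 to 0.45, Ifitm3 from -0.043 to 0.55, Stat2 from -0.23 to 0.45, Irf9 from -0.29 to 0.19 and Irf7 from -0.073 to 1.80. The cause of these moves was not tested. The pan-leukocyte term and the restriction to 4 samples were chosen after seeing the data. No paired analysis was possible because the labels give no pairing of young with aged samples. Depth limits Oas3, Mx1 and Oas2, which had as few as 3, 2 and 15 counts in a sample.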
